A study of Mus musculus with 12 samples.

Results

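The mouse Frizzled receptor genes, Fzd1 to Fzd10, were followed in RNA from the meninges, the membranes around the brain, of 6 mice with colitis induced by dextran sulfate sodium (DSS, a sulfated sugar polymer toxic to the colon lining) and 6 Control mice. Members were the rows of the deposited count table that carry a Frizzled gene symbol. All 10 symbols were found among 47747 in the table, and all 10 were among the 18593 genes that passed the filter on low counts. The family was chosen from results of this same comparison, in which the lower Fzd8 level was already known, so its DSS against Control values are given as a description, without a test. DSS mice had 2% DSS in their drinking water for 5 days and then normal water. Control mice carry the treatment label Control with no agent named. Both groups were C57bl/6, and both were culled after 6 days, a time whose starting day the labels do not state. The labels name no transgene or deletion in either group, and no age or sex was given in them.

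Frizzled proteins are membrane receptors with a cysteine-rich outer domain that binds Wnt proteins, which are secreted lipid-modified ligands. With the co-receptors Lrp5 or Lrp6 a Frizzled receptor stabilises beta-catenin and switches on Wnt target genes, and with other partners it directs planar cell polarity and cell movement. Fzd4 also binds Norrin, a ligand unrelated in sequence to the Wnt proteins, which is needed for retinal vessels and for the barrier of central nervous system vessels. In the developing head, Wnt signals act in the meninges, in the skull bones that form next to them and in the blood vessels that pass through them.

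Each mouse gave 1 library of 9312788 to 41869997 counts. Markers of meningeal fibroblasts summed to 11934 to 22470 CPM (counts divided by a library's TMM-scaled size) in DSS libraries and 13086 to 20026 CPM in Control libraries. Colon epithelium markers, checked because the labels' source field names colon while titles and extraction protocol name meninges, summed to 5.10 to 12.8 CPM in DSS libraries and 4.80 to 7.93 CPM in Control libraries, and Cdx2 had 0 counts in all 12. A pair of libraries stood apart. DSS replicate 2 had 467 CPM of skeletal muscle genes, above the other DSS libraries (6.92 to 16.1 CPM) and the Control libraries (19.1 to 51.1 CPM). Among DSS libraries it was also highest in astrocyte and oligodendrocyte genes (257 CPM), choroid plexus genes (7047 CPM) and endothelial genes (1131 CPM). It was lowest among them in meningeal fibroblast genes (11934 CPM), in osteoblast and bone genes (834 CPM) and in macrophage genes (623 CPM). In Control replicate 2 the ribosomal RNA features Rn18s-rs5 and AY036118 made up 59.8% of the counts, where the other 11 libraries had 0.043% to 9.23%. Choroid plexus genes varied widely within both groups, from 43.3 to 7047 CPM among DSS libraries and from 67.2 to 6959 CPM among Control libraries.

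Fzd7 and Fzd1 were the most highly expressed Frizzled genes of the meninges in both groups. To compare levels between genes, CPM was divided by the length of each gene's merged exons in kilobases. On this scale Fzd7 had a level of 25.9 ± 2.04 CPM per kilobase in DSS mice and 27.2 ± 2.79 in Control mice, and Fzd1 had 19.7 ± 3.72 in DSS mice and 20.2 ± 1.46 in Control mice (SD, n = 6 each throughout). Fzd2 followed with 11.8 ± 1.25 in DSS mice and 13.2 ± 1.27 in Control mice. The Norrin receptor gene Fzd4 had 9.46 ± 1.59 in DSS mice and 8.74 ± 1.31 in Control mice.

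The remaining members were lower. Fzd5 had a level of 5.37 ± 0.685 CPM per kilobase in DSS mice and 6.31 ± 1.04 in Control mice. Fzd6, a receptor known for planar polarity in skin and hair follicles, had 4.70 ± 0.843 in DSS mice and 5.37 ± 0.708 in Control mice. Fzd8 had 3.11 ± 0.445 in DSS mice and 5.48 ± 0.985 in Control mice. Fzd9 had 2.78 ± 0.729 in DSS mice and 2.90 ± 0.779 in Control mice. Fzd10, with 0.712 ± 0.208 in DSS mice and 0.969 ± 0.151 in Control mice, and Fzd3, an axon guidance receptor gene, with 0.786 ± 0.122 in DSS mice and 0.862 ± 0.0984 in Control mice, closed the order.

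**Figure D1:**
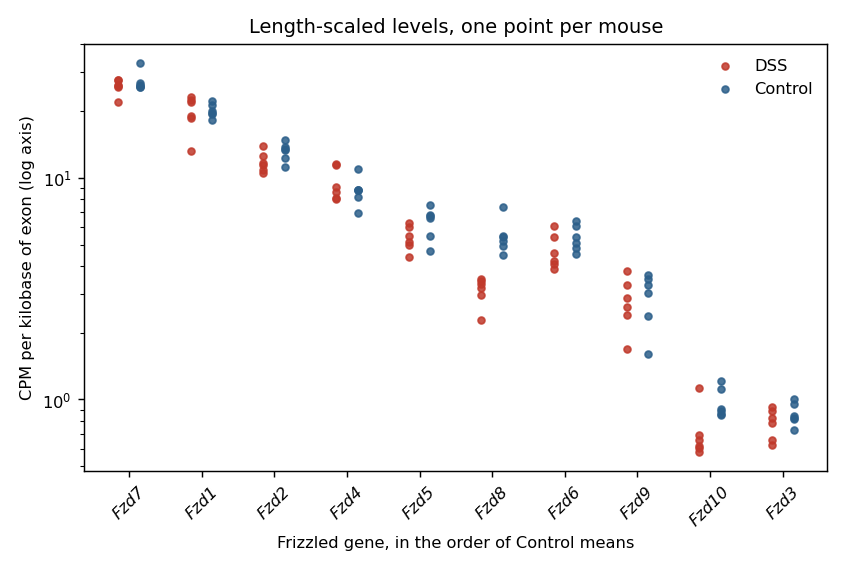
Frizzled levels in CPM per kilobase of exon on a log axis, 1 point per mouse, DSS left of Control for each gene, with genes in the order of the Control means. Fzd7 and Fzd1 lead in both groups, and in DSS mice the Fzd8 points lie below the Fzd6 points.

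Neighbours in the order of the Control means were compared within mice by a two-sided exact sign-flip permutation test on the log2 level, adjusted over the 9 neighbour pairs of a group; with 6 mice the smallest possible exact p is 0.03125. In both DSS and Control mice, 7 of 9 neighbours differed (exact permutation, adjusted p = 0.0402 for each, all at the smallest possible exact p). In DSS mice they include Fzd5 with Fzd8 and Fzd8 with Fzd6. Those pairs rest on the low Fzd8 values known when the family was chosen, and are not read as a test. Fzd7 exceeded Fzd1 in 6 of 6 DSS mice, by 0.41 ± 0.28 log2, and in 6 of 6 Control mice, by 0.43 ± 0.09 log2. In DSS mice Fzd2 and Fzd4 did not differ beyond the spread between mice (exact permutation, adjusted p = 0.105), nor did Fzd10 and Fzd3 (adjusted p = 0.219). In Control mice the neighbours not separated were Fzd8 and Fzd6 (exact permutation, adjusted p = 0.719) and Fzd10 and Fzd3 (adjusted p = 0.176).

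Fzd8 lay below Fzd6 in 6 of 6 DSS mice, by 0.59 ± 0.26 log2 (mean difference -0.59), while in Control mice it was above Fzd6 in 4 of 6, with a mean difference of 0.02 ± 0.16 log2. This order depends on the length used for Fzd6: with the longest transcript in place of the merged exons, Fzd8 lay above Fzd6 in 1 of 6 Control mice (mean difference -0.14 log2; exact permutation, adjusted p = 0.105) and in 0 of 6 DSS mice. The change of place is the Fzd8 difference between groups seen on another scale, and is no separate result.

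Promoter windows of RefSeq on the GRCm38.p6 build, from 250 bases before to 50 bases after a gene's start, were matched by symbol for 6 of 10 members: Fzd1, Fzd4, Fzd5, Fzd7, Fzd9 and Fzd10. Fzd2, Fzd3, Fzd6 and Fzd8 are named only. The window starts are those of RefSeq and can differ from the GENCODE M21 gene models used for gene length. In GENCODE M21 the Fzd10 window (chr5:128600856-128601155, plus strand) lies wholly inside the exon, bases 128600844 to 128604093. Most of the Fzd9 window also lies inside its exon, which starts at base 135251230. The Fzd7 and Fzd1 windows end before the GENCODE starts, at bases 59482424 and 4758035. Letter counts in these windows may not describe a promoter. The sequences of 3 are shown: Fzd7 because it had the highest level, and Fzd5 and Fzd9 because they had the highest Pearson r of any pair of members with a window. All read 5′ to 3′ on the gene's strand, and capitals mark GGGCGG or its reverse complement CCGCCC, the GC box bound by Sp1-type factors. Fzd7 is at chr1:59481897-59482196 (plus strand), Fzd5 at chr1:64737701-64738000 (minus strand) and Fzd9 at chr5:135250998-135251297 (minus strand).
Fzd7: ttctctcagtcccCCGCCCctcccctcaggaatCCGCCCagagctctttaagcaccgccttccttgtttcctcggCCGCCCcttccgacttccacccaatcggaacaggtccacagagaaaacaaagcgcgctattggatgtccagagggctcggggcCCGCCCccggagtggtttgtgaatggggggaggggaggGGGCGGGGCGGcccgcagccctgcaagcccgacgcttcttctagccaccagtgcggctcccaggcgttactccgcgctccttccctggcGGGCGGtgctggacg
Fzd5: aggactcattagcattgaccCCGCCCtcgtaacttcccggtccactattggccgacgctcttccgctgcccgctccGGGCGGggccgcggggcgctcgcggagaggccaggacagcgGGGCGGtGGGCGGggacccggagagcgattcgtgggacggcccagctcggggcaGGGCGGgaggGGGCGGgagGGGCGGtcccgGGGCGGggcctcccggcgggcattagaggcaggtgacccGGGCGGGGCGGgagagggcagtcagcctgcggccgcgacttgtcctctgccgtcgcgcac
Fzd9: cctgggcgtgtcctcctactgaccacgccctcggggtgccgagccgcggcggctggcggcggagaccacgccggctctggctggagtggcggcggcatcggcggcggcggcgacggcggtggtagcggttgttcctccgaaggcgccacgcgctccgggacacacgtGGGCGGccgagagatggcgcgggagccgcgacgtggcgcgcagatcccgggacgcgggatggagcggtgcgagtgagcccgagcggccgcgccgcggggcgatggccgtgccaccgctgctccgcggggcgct
The GC box letters occurred 7 times in the Fzd7 window, 10 times in the Fzd5 window and 1 time in the Fzd9 window, counting both strands and overlapping matches. In the windows not shown they occurred 8 times in Fzd4, 1 time in Fzd10 and 0 times in Fzd1. Of all 32851 windows, 35.7% hold at least 1 such match. The GC content was 66.7% in the Fzd7 window, 75.7% in the Fzd5 window and 78% in the Fzd9 window, against a median of 52.7% over all windows. CCAAT or its reverse complement ATTGG, found in 37.4% of all windows, occurred 2 times in Fzd7, 1 time in Fzd5, 1 time in Fzd4 and 0 times in the other 3. TATAAA or TTTATA, found in 13.6% of windows, and the TCF/LEF core CTTTGA or TCAAAG, found in 16% of windows, each occurred 1 time in Fzd1 and 0 times in the other 5. CACGTG, an E-box found in 7.15% of windows, occurred 1 time in Fzd9 and 0 times in the other 5. A match describes the letters in the window and is not evidence that a factor binds there.

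Between the groups, Fzd8 was the member with the lowest values in DSS mice relative to Control mice. Fzd8 had 20.8, 20.6, 19.0, 19.8, 13.7 and 17.6 CPM in DSS mice 1 to 6, against 44.0, 31.0, 32.5, 29.6, 32.3 and 26.9 CPM in Control mice 1 to 6. All 6 DSS values lay below all 6 Control values. Means were 18.6 ± 2.66 CPM in DSS mice and 32.7 ± 5.88 CPM in Control mice, a fitted log2 fold change of -0.82 ± 0.12 (SE), or 43.4% lower. These values rest on 280 to 530 counts per DSS library and 362 to 2039 counts per Control library. Of all genes tested, 1.51% had a lower log2 fold change. Fzd8 is an intronless gene on chromosome 18 (GRCm38, bases 9212163 to 9218136, plus strand, 1 exon in GENCODE M21). Without Control replicate 1, the highest library, the log2 fold change was -0.71.

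Fzd10 came next. Fzd10 had 2.24, 3.67, 1.95, 1.89, 2.14 and 2.00 CPM in DSS mice 1 to 6, against 2.93, 3.61, 2.88, 2.76, 3.92 and 2.80 CPM in Control mice 1 to 6. In 5 of 6 DSS mice the value lay below every Control mouse, and the exception was replicate 2, which stood apart in several cell type lists. The part of any of these lists in its Fzd10 value was not tested. The fitted log2 fold change was -0.46 ± 0.18 (SE), at 46 to 61 counts per DSS library and 32 to 136 per Control library. Without DSS replicate 2 it was -0.61.

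The other 8 members had overlapping groups. Fzd7 had 119, 116, 125, 118, 100.1 and 126 CPM in DSS mice 1 to 6, against 149, 121, 116, 118, 119 and 117 CPM in Control mice 1 to 6. Apart from the high Control replicate 1 and the low DSS replicate 5, its values lay close together, and the log2 fold change was -0.07 ± 0.08. Fzd1 had 79.8, 55.2, 92.3, 94.3, 77.8 and 96.9 CPM in DSS mice, against 93.7, 89.9, 81.8, 76.7, 84.4 and 81.9 CPM in Control mice. DSS replicate 2 had the lowest Fzd1 value of all, and the log2 fold change was -0.03 ± 0.11.

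Fzd4 was the member with a log2 fold change above 0. Fzd4 had 60.8, 76.4, 54.5, 54.2, 57.8 and 77.6 CPM in DSS mice, against 73.7, 59.4, 59.0, 59.1, 46.4 and 55.0 CPM in Control mice. Only DSS replicates 2 and 6 lay above every Control mouse, and the log2 fold change was 0.11 ± 0.12. Fzd9, a receptor gene active in mouse osteoblasts, had 6.00, 3.89, 6.58, 7.55, 8.72 and 5.52 CPM in DSS mice, against 6.90, 5.45, 8.00, 7.50, 8.40 and 3.67 CPM in Control mice. Its groups covered nearly the same range, with a log2 fold change of -0.05 ± 0.21.

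Fzd5 had 30.4 to 43.1 CPM (median 36.6) in DSS mice and 32.4 to 52.3 CPM (median 46.0) in Control mice, a log2 fold change of -0.23 ± 0.11. Fzd6 had 18.7 to 29.1 CPM (median 21.2) in DSS mice and 21.9 to 30.6 CPM (median 25.2) in Control mice, with 3 of 6 DSS mice below every Control mouse and a log2 fold change of -0.20 ± 0.12. In GENCODE M21, Fzd5 exons overlap Gm38058 and Fzd6 exons overlap Gm26704 on the opposite strand; the strand setting of the counting is not given in the sources used here, so their counts may include reads of those genes. Fzd2 had 38.6 to 51.0 CPM (median 42.1) in DSS mice and 40.9 to 54.5 CPM (median 49.1) in Control mice, a log2 fold change of -0.16 ± 0.08. Fzd3 had 8.01 to 11.9 CPM (median 10.3) in DSS mice and 9.37 to 12.9 CPM (median 10.7) in Control mice, a log2 fold change of -0.13 ± 0.11.

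**Figure D2:**
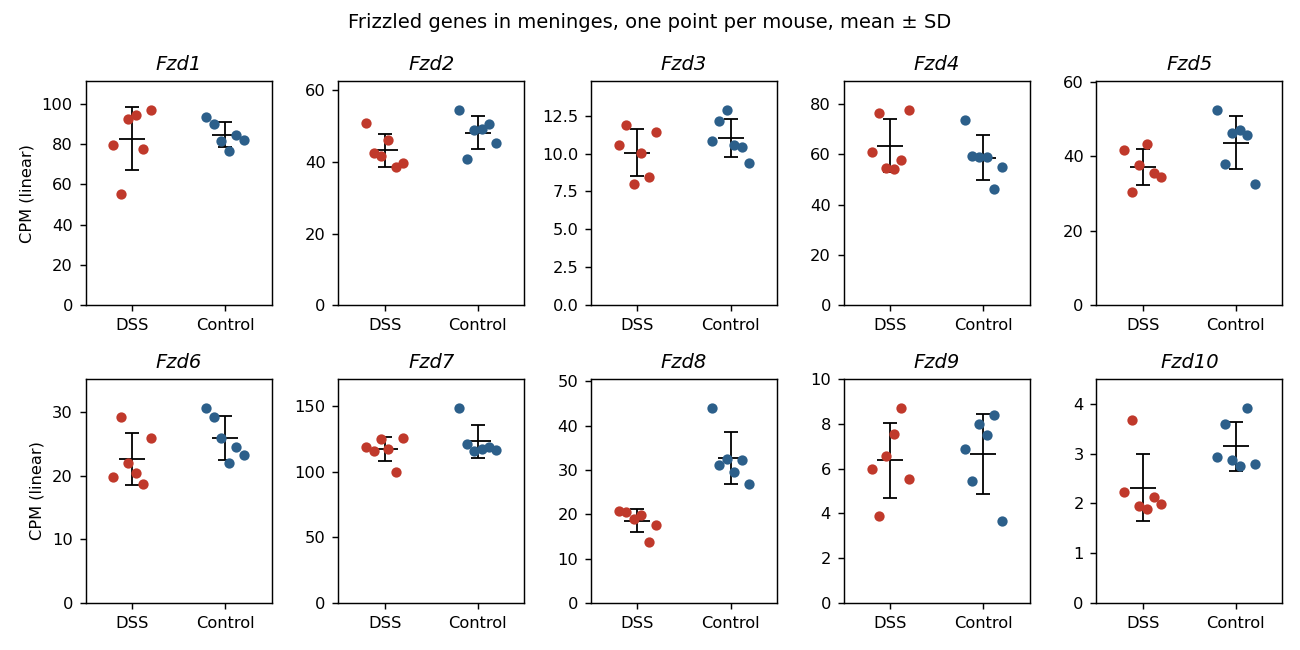
CPM of the 10 Frizzled genes on linear axes, 1 point per mouse, DSS left of Control, with the mean ± SD as black marks. The groups are apart in Fzd8, with DSS mice at 13.7 to 20.8 CPM and Control mice at 26.9 to 44.0 CPM, and overlap in the other 9.

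Counted together, 9 members had a log2 fold change below 0 and 1 above 0, with a median of -0.14; over all tested genes the median was -0.02 and 54.7% lay below 0. Without DSS replicate 2, 7 members lay below 0 and 3 above, Fzd4, Fzd1 (0.07) and Fzd9 (0.06), and the median was -0.15. At an adjusted p under 0.05 in edgeR's quasi-likelihood test over all genes, 4.94% of genes were called in either direction, 1.26% as lower in DSS mice and 3.68% as higher, and the family held 1 gene called lower, Fzd8, and 0 called higher. All DSS mice lay below all Control mice in 1 member, Fzd8, and in 0.823% of all tested genes. Nothing is read from these counts, since the family was chosen on this comparison.

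**Figure D3:**
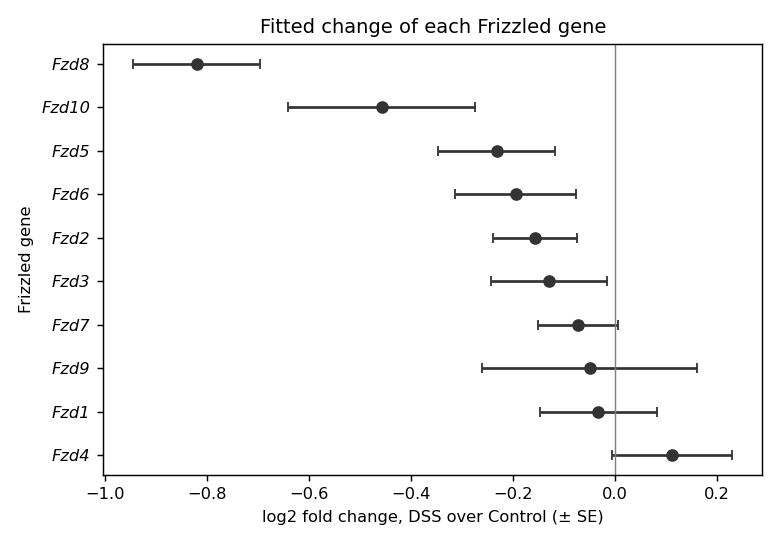
Fitted log2 fold change, DSS over Control, of each Frizzled gene, with bars of 1 SE from the fit over all genes and a line at 0. Fzd8 lies lowest at -0.82, Fzd10 next at -0.46, and the other 8 between -0.23 and 0.11.

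The summed level of the 10 genes was 84.3 ± 5.38 CPM per kilobase in DSS mice (76.2 to 90.4) and 91.2 ± 8.19 in Control mice (83.0 to 107). The groups overlapped. Fzd8 made up 3.69% ± 0.49 of the sum in DSS mice and 5.97% ± 0.50 in Control mice, without overlap, which restates its lower level. Fzd1 made up 23.3% ± 3.56 in DSS mice and 22.2% ± 1.33 in Control mice. In bulk tissue, fewer cells of a type and less RNA per cell cannot be told apart.

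Genes of some cell type lists were called between the groups, where 1.26% of all tested genes were called lower and 3.68% higher. Of 7 tested osteoclast genes, 6 were lower in DSS mice in edgeR's test (Acp5, Ctsk, Mmp9, Dcstamp, Atp6v0d2 and Oscar), and the list summed to 193 to 357 CPM in DSS libraries and 354 to 564 CPM in Control libraries. Of 11 neutrophil genes, 11 were higher, with sums of 262 to 1403 CPM in DSS libraries and 69.0 to 201 CPM in Control libraries. Of 10 macrophage genes 2 were higher (Adgre1 and Fcgr1), with sums of 623 to 1190 CPM in DSS libraries and 669 to 796 CPM in Control libraries. The 623 CPM was that of DSS replicate 2, and every other DSS library had at least 905 CPM, above all Control libraries. Of 9 tested neuron genes 2 were lower (Syn1 and Tubb3), of 11 tested osteoblast and bone genes 1 (Ibsp), of 7 arachnoid barrier genes 1 (Cldn11) and of 15 meningeal fibroblast genes 1 (Aldh1a2). The neuron list summed to 96.7 to 137 CPM in DSS libraries and 121 to 196 CPM in Control libraries, and the arachnoid list to 566 to 1451 CPM in DSS libraries and 960 to 1839 CPM in Control libraries. Within groups, Fzd8 and the osteoclast list level had a Pearson r of 0.12 in the 6 DSS mice (Spearman rho -0.26; exact permutation p = 0.751 for r and 0.658 for rho; adjusted p = 0.912 and 0.940) and of 0.12 in the 6 Control mice (rho 0.37; exact p = 0.842 and 0.497; adjusted p = 0.954 and 0.962). Without the 2 mice farthest from the median list level, r was 0.54 in DSS mice and -0.48 in Control mice. These relations over 6 mice do not measure the part of osteoclasts or of the other cell types in the Fzd8 values, which was not tested.

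Across mice, with the group means subtracted, members did not all vary in the same direction. Over the 45 pairs of members in 12 libraries the median Pearson r of log2 CPM was 0.19, with 28 pairs above 0. This is a description over libraries that share depth and tissue make-up. The median over pairs of other genes was not taken, so 0.19 is not read as high or low. The highest Pearson r was 0.83, between Fzd7 and Fzd8 (Spearman rho 0.66), followed by 0.78 between Fzd5 and Fzd9 (rho 0.57) and 0.74 between Fzd4 and Fzd6 (rho 0.61). By ranks the order differed, and Fzd2 and Fzd5 had the highest rho, 0.82, at a Pearson r of 0.72. The lowest Pearson r was -0.72, between Fzd1 and Fzd10 (rho -0.44), and the lowest rho -0.48, between Fzd4 and Fzd9. Control replicate 1 was far above the other Control mice in both Fzd7 and Fzd8, and DSS replicate 2 far above the other DSS mice in Fzd10. The genes most like each member were picked by the same Pearson r from 18593 tested genes over 12 libraries. Values this high can arise from such picking, so no link between the genes is read from them. Those most like Fzd8 were Ankrd52 (0.93), Bcl9l (0.93), a beta-catenin co-activator gene, and Kdm2a (0.92), and those most like Fzd7 were Msl1 (0.91), Notch1 (0.90), a receptor gene, and Elk4 (0.89). Fzd6 was most like Sox5 (0.97), Gucy1a3 (0.96) and Atm (0.96). Fzd4 was most like Hipk3 (0.94), Zbtb44 (0.94) and Avl9 (0.93), Fzd2 like Larp1 (0.94) and Lrp10 (0.93), and Fzd1 like Gm11710 (0.93), Gtf3c4 (0.93) and Iars2 (0.93). Fzd3 was most like Mir1902 (0.94), Ints8 (0.93) and Zfp944 (0.92), Fzd5 like Traf3 (0.94), Lmo7 (0.91) and Chd4 (0.89), Fzd9 like Gm6736 (0.93), Lmo7 (0.91) and Rrs1 (0.91), and Fzd10 like Agap2 (0.92), Adcyap1r1 (0.91) and Des (0.91), a muscle intermediate filament gene. For these last 3 genes the Spearman rho with Fzd10 was 0.48, 0.68 and 0.50, and DSS replicate 2, which stood apart in several cell type lists, had the high Fzd10 value.

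Each member was also set against 13 cell type lists (all but colon epithelium) within each group, as the relation of its log2 CPM to the mean log2 CPM of the list over 6 mice, 130 relations per group. After adjustment over a group's relations, 0 passed in DSS mice and 0 in Control mice by the exact permutation test. With 6 mice the smallest possible exact p for r is 0.00139, and a lone relation at that floor had an adjusted p of 0.181. The test could therefore hardly pass a single relation, and the 0 does not show that relations were absent. An unadjusted exact p under 0.05 was reached by 13 in DSS mice and 7 in Control mice. By chance a share of up to about 0.05 of the 130 would do so. Fzd9 and the osteoblast and bone list, the relation with the smallest exact p for r in DSS mice, had the same rank order in both groups. In DSS mice Pearson's r was 0.99 (exact permutation p = 0.00139, adjusted p = 0.181) and Spearman's rho 1.00 (exact p = 0.00278, adjusted p = 0.181), and r was 0.96 without the 2 mice farthest from the median list level. In Control mice r was 0.86 (exact permutation p = 0.0264, adjusted p = 0.686) and rho 1.00 (exact p = 0.00278, adjusted p = 0.361), and r was 0.88 without those 2 mice. Other lists also had a large r with Fzd9 in DSS mice. It was -0.91 for the astrocyte and oligodendrocyte list (adjusted p = 0.391) and -0.88 for the endothelial list (adjusted p = 0.421). It was 0.86 for the macrophage list and -0.80 for the Schwann cell list (adjusted p = 0.436 for each). In Control mice r was 0.42, -0.12, -0.84 and 0.16 for these lists, in the same order. Fzd6 and the endothelial list had an r of 0.94 and a rho of 1.00 in DSS mice (exact permutation p = 0.00417 and 0.00278, adjusted p = 0.271 and 0.181) and an r of 0.55 and a rho of 0.43 in Control mice (exact p = 0.247 and 0.419, adjusted p = 0.768 and 0.962); without 2 mice r was 0.96 in DSS mice and 0.45 in Control mice.

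**Figure D4:**
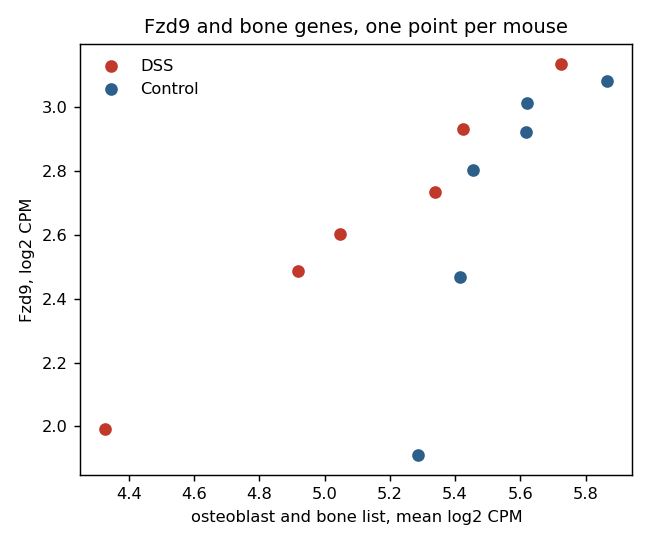
Fzd9 in log2 CPM against the mean log2 CPM of 11 osteoblast and bone genes, 1 point per mouse, DSS red and Control blue. Within each group the mice stand in the same order on both axes, with DSS replicate 2 lowest among DSS mice and Control replicate 6 lowest among Control mice.

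The genes that supply, assist and read the Frizzled receptors were taken from lists of 102 Wnt pathway genes outside the family, of which 88 were tested. In DSS mice 1 was higher and 3 were lower by edgeR's adjusted p over all genes, which is 4.55% of the 88 against 4.94% of all tested genes, and the median log2 fold change was -0.02, as over all genes. At an unadjusted p under 0.05 there were 17 of 88, against 19% of all genes. 

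Among ligands, Wnt9a, known in mouse for joint development, rose. Wnt9a had 31.4, 27.4, 48.2, 33.8, 54.5 and 41.7 CPM in DSS mice 1 to 6, against 20.4, 23.2, 14.6, 19.9, 17.9 and 27.5 CPM in Control mice 1 to 6. In 5 of 6 DSS mice the value lay above every Control mouse, and the log2 fold change was 0.94 ± 0.18 (SE; edgeR adjusted p = 0.00711). The other 10 tested ligands were not called; Wnt5a, a ligand of the polarity branch, had 13.3 ± 2.24 CPM in DSS mice and 14.05 ± 2.04 CPM in Control mice (log2 fold change -0.09 ± 0.12, adjusted p = 0.780). The median of the 11 tested ligands was -0.09, and neither of the secretion genes Porcn and Wls was called (0 of 2).

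Among the 15 tested secreted and surface inhibitors, Wif1, which encodes a secreted protein that binds Wnt ligands, fell. Wif1 had 3.00, 3.08, 2.79, 3.61, 2.94 and 2.86 CPM in DSS mice 1 to 6, against 5.63, 5.11, 6.56, 7.35, 6.60 and 3.67 CPM in Control mice 1 to 6. All DSS mice lay below all Control mice, and the log2 fold change was -0.93 ± 0.16 (SE; edgeR adjusted p = 0.00385). The values rest on 42 to 88 counts per DSS library and 61 to 261 per Control library, and the nearest mice had 3.61 and 3.67 CPM. The list's median was -0.12. Sfrp1, a secreted relative of the Frizzled Wnt-binding domain, had 11.9 ± 2.45 CPM in DSS mice and 12.9 ± 2.39 CPM in Control mice (-0.12 ± 0.15, adjusted p = 0.735).

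Among co-receptors, 0 of 9 were called, with a median of -0.05. Lrp5 had 179 ± 11.5 CPM in DSS mice and 194 ± 15.2 CPM in Control mice (log2 fold change -0.12 ± 0.07, adjusted p = 0.406), and Lrp6 had 270.4 ± 19.5 CPM in DSS mice and 271 ± 27.4 CPM in Control mice (adjusted p = 0.994). In the Norrin branch, Tspan12, the tetraspanin that assists Fzd4, had 11.9 ± 1.56 CPM in DSS mice and 12.7 ± 0.84 CPM in Control mice (-0.09 ± 0.09, adjusted p = 0.689); Ndp, the Norrin gene, did not pass the filter on low counts. Of 8 tested receptor turnover genes 0 were called, with a median of -0.08: Rnf43 and Znrf3 encode ubiquitin ligases that remove Frizzled from the cell surface, and Lgr5 is a receptor for the R-spondins that block them. Rnf43 had 3.33 ± 0.91 CPM in DSS mice and 4.14 ± 0.68 CPM in Control mice (-0.32 ± 0.19, adjusted p = 0.390). Znrf3 had 15.4 ± 1.81 CPM in DSS mice and 15.5 ± 1.23 CPM in Control mice (-0.02 ± 0.09, adjusted p = 0.958). Lgr5 had 1.06 ± 1.21 CPM in DSS mice and 1.24 ± 0.73 CPM in Control mice (-0.34 ± 0.57, adjusted p = 0.822). Its value without DSS replicate 2, the mouse with 3.45 CPM, was -1.10, and without Control replicate 4 it was 0.02.

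Inside the cell, 0 of 20 transducers were called, with a median of 0.07. Ctnnb1, the beta-catenin gene, had 634 ± 39.1 CPM in DSS mice and 680.4 ± 21.3 CPM in Control mice (log2 fold change -0.10 ± 0.08, adjusted p = 0.525). Of 16 beta-catenin target genes 0 were called, with a median of -0.15. Axin2, a feedback inhibitor widely read as a marker of beta-catenin signalling, had 11.0 ± 1.79 CPM in DSS mice and 12.5 ± 1.34 CPM in Control mice (-0.20 ± 0.11, adjusted p = 0.371), and Lef1 had 5.31 ± 1.84 CPM in DSS mice and 4.52 ± 0.80 CPM in Control mice (0.21 ± 0.21, adjusted p = 0.655). Among 14 planar polarity genes Prickle1 and Prickle2, which encode cytoplasmic polarity proteins, were called lower. Prickle1 had 20.3, 19.6, 21.5, 19.0, 18.7 and 19.96 CPM in DSS mice, against 28.9, 24.0, 25.3, 26.5, 26.4 and 19.5 CPM in Control mice (-0.34 ± 0.09, adjusted p = 0.0364). Prickle2 had 44.3, 37.9, 40.4, 32.9, 40.2 and 39.2 CPM in DSS mice, against 43.1, 48.4, 45.7, 51.3, 51.3 and 46.5 CPM in Control mice (-0.28 ± 0.07, adjusted p = 0.0394). Each of these calls was lost in 14 of 21 alternative analyses, and the median of the 14 polarity genes was 0.05.

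**Figure D5:**
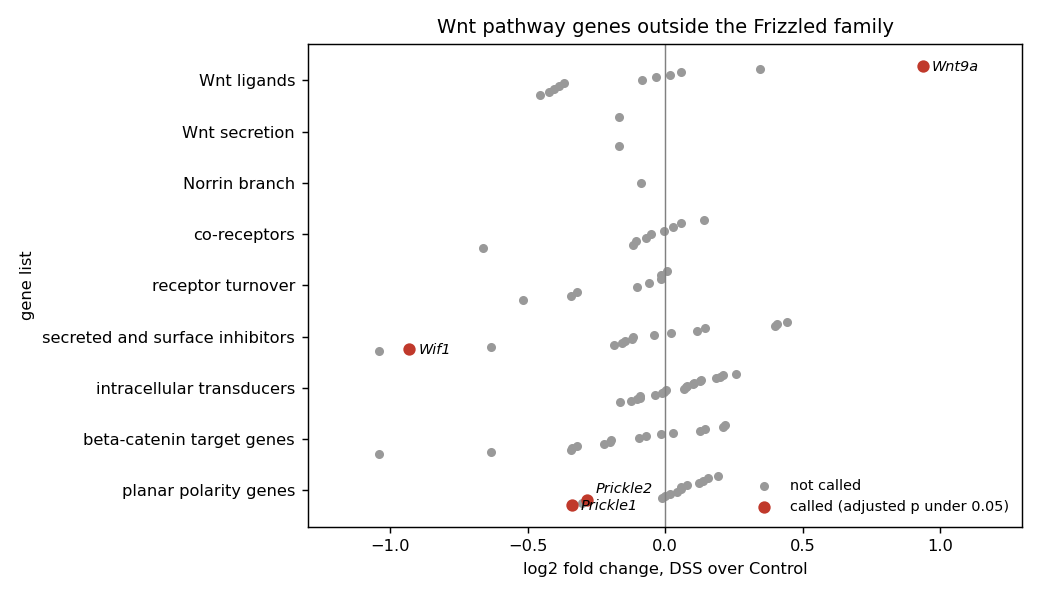
Log2 fold change, DSS over Control, of the tested Wnt pathway genes outside the Frizzled family by list, 1 point per gene, with genes called at an edgeR adjusted p under 0.05 in red; a gene in more than 1 list appears in each. Wnt9a is called at 0.94, Wif1 at -0.93, Prickle1 at -0.34 and Prickle2 at -0.28, and the points of the beta-catenin target genes and co-receptors are grey.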

How the data were processed

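Total RNA of the meninges of 12 C57bl/6 mice was sequenced with a stranded TruSeq kit, per the labels' protocols. Per the submitters' processing notes the tools named, with no order or role, were featureCounts, HISAT2, Trim Galore, FastQC and CASAVA, and the build mm10; which versions, annotation and strand setting were used is not given in the sources used here. The deposited count table gives raw whole-number counts by gene symbol; 0 columns belonged to no sample. The deposited normalized table, a signal in which the authors scaled the counts per library, served an alternative.

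Counts were tested with edgeR 4.0.16 in R 4.3.3: filterByExpr (minimum count 10, minimum total 15), TMM factors, and the two-sided quasi-likelihood F-test with treatment as the term, Benjamini-Hochberg adjusted over 18593 genes, called under 0.05. CPM was scaled with the TMM factors, and 2 was the prior count for log2 CPM. Gene models came from GENCODE M21 on GRCm38, the assembly of mm10, where 45323 of 47747 symbols (94.9%) were found. Depth was 9312788 to 41869997 counts; the spread between mice sets the error. Same-group libraries were distinct (lowest chi-square per degree of freedom 20.3). The steps were tested on simulated data. Exact tests used scipy 1.17.1 and pandas 2.3.3 under Python 3.11.15.

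Members and gene lists were chosen with earlier results of these data known. Genes named beyond the members were, per pathway list, up to 3 called genes in each direction with the smallest p, 12 pathway genes named regardless of their values, and the 3 genes most like each member, of which 1 is not reported here. Alternatives were DESeq2 1.42.0 (size factors and Wald test), limma 3.58.1 (voom with quality weights, and trend on log2 of the deposited values with a pseudocount of 1), filters of 1 count or of 1 CPM in 6 libraries, a fit with 1 surrogate variable (sva 3.50.0), a fit with the replicate number as a block, Control and DSS replicate 2 left out together, each mouse left out in turn, and the longest transcript as gene length.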

Additional observations from a re-analysis of the deposited data

Results flagged for a closer look

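In 9 of 52 groups of 6 mice checked, 1 mouse stood far from the other 5, by its gap to the nearest mouse relative to the group's whole range. Chance gives about 1 in 20 for a single group. The 52 groups share the same libraries, and the summed level contains Fzd7 and Fzd8, so 9 of 52 is not read against that share. Control replicate 1 was the high mouse in 4 of the 9. It had 149 CPM of Fzd7 (the other Controls 116 to 121), 44.0 CPM of Fzd8 (26.9 to 32.5), 15.05 CPM of Axin2 (11.6 to 12.9) and a summed Frizzled level of 107 CPM per kilobase (83.0 to 90.1). DSS replicate 5 was the low mouse in 2, with 100.1 CPM of Fzd7 (the other DSS mice 116 to 126) and 11.9 CPM of Znrf3 (14.95 to 16.7). DSS replicate 2, which stood apart in several cell type lists, was high in Fzd10 at 3.67 CPM (1.89 to 2.24) and in Lgr5 at 3.45 CPM (0.20 to 0.94). DSS replicate 4 had 3.61 CPM of Wif1 (2.79 to 3.08). No cause was tested.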

How the results depend on the processing

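Wnt9a (0.82 to 1.07) and Wif1 (-1.03 to -0.84) had an adjusted p under 0.05 in all 21 alternatives. The log2 fold change of Fzd8, on which the family was chosen, lay between -0.86 and -0.71, given as a description. The 919 genes called became 1551 with the DESeq2 Wald test and 538 to 1379 with 1 mouse left out; the count was 1379 without DSS replicate 2, 559 without replicate 4 and 538 without replicate 6 of DSS, and 608 without replicate 5 of Control. The Frizzled genes called became 2, Fzd8 and Fzd10, with limma-voom quality weights and with Control and DSS replicate 2 both left out, and were 1 to 2 with 1 mouse left out, 2 without DSS replicate 2. The 4 pathway genes called became 6 with limma-voom quality weights (adding Musk and Notum), 2 with limma-trend, with no filter except 1 count, with both replicate 2 libraries left out, and 2 to 3 with 1 mouse left out. With the replicate block 708 genes, 1 Frizzled gene (Fzd8, -0.81) and 2 pathway genes were called; same-numbered mice did not deviate together (correlations -0.189 to 0.154, 1 of 6 DSS mice best matched to its own number). Order of levels: 7 pairs passed with 6 mice and 0 to 0 with 5, where the smallest exact p is 0.0625. Log2 fold changes turned positive for Lrp6 with DESeq2 size factors (0.00805) and Wald test (0.0079), voom (0.029), limma-trend (0.013), no filter (0.0033), the replicate block (0.00017) and both replicate 2 libraries left out (0.013), for Fzd1 with voom (0.0053) and both left out (0.087), and for Fzd9 with both left out (0.015); the cause was not tested. With 1 mouse left out they spanned -0.037 to 0.054 for Lrp6, -0.083 to 0.070 for Fzd1, -0.17 to 0.062 for Fzd9, -0.045 to 0.049 for Znrf3 and -1.10 (without DSS replicate 2) to 0.018 for Lgr5. Low counts, 32 to 136 for Fzd10, 53 to 320 for Fzd9 and 42 to 261 for Wif1, limit the precision of those genes.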

Other observations

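Smo, which encodes Smoothened, the Hedgehog pathway receptor of the same protein class as the Frizzled receptors, had 118 ± 10.1 CPM in DSS mice (99.6 to 129) and 122 ± 7.95 CPM in Control mice (109 to 132), with overlapping groups and a log2 fold change of -0.05. It was added after the Frizzled values were seen. Fzd10 and the choroid plexus list, whose level varied widely between libraries, had a Pearson r of 0.58 in DSS mice (Spearman rho 0.94; exact permutation p = 0.172 and 0.0167, adjusted p = 0.528 and 0.433) and of -0.99 in Control mice (rho -0.94; exact p = 0.00417 and 0.0167, adjusted p = 0.542 and 0.632), over 6 mice each. Without the 2 mice farthest from the median list level r was 0.68 in DSS mice and -0.78 in Control mice. The difference between the groups was not tested.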
